A study of Mus musculus with 16 samples.

Results

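The sciatic nerve of adult mice that lack *Becn1* in Schwann cells was compared with control nerve of the same age. The 4 arrays of 2-month-old *Becn1* cKO nerve and the 4 arrays of 2-month-old control nerve were chosen by their labels. They are 8 of the 16 arrays of the series. All 19505 genes with a symbol of their own on the array were compared. The other 8 arrays hold nerves of the same genotypes at postnatal day 10 (P10) and were used only where the effects at the 2 ages were set against each other. Each array was a Clariom S mouse array, which carries a set of probes for each transcript cluster, and each value is the robust multiarray average of those probes on the log2 scale, so that a difference of 1 is a 2-fold difference. In *Becn1* cKO mice both *Becn1* alleles carry LoxP sites and Cre is driven by a promoter that is active in Schwann cells from the embryo on. The control arrays are labelled wild-type, and according to the study's methods controls were mice with the floxed allele but without Cre. RNA was taken from the whole nerve, which also holds axons, fibroblasts, perineurial cells, vessels, fat and immune cells that keep *Becn1*, and in such RNA fewer cells of a type and less RNA per cell cannot be told apart. The labels do not say that each array came from a separate animal, so the p-values measure the spread between these arrays.

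Beclin 1, the product of *Becn1*, is a subunit of the class III phosphatidylinositol 3-kinase complexes that make phosphatidylinositol 3-phosphate, the lipid that starts autophagosomes and marks endosomes. Schwann cells are the glia of peripheral nerve. Myelinating Schwann cells each wrap a single axon in a lipid-rich sheath under the control of the transcription factor Egr2, and after injury they can leave this state, divide, clear myelin and call in macrophages.

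*Becn1* itself was slightly lower in cKO nerve. Its signal was 8.53, 8.44, 8.46 and 8.36 in control nerve against 8.24, 8.23, 8.18 and 8.10 in cKO nerve. The groups did not overlap, and the log2 change -0.26, standard error 0.09, adjusted p = 0.0312. The change was small, and the call at an adjusted p under 0.05 was lost when any 1 of control replicates 1, 2 and 3 or cKO replicates 3 and 4 was left out, with adjusted p from 0.056 to 0.102. Where the probes lie relative to the floxed exons is not known here.

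The 8 arrays separated by genotype. Correlations over all genes ran from 0.990 to 0.994 among the cKO arrays, from 0.982 to 0.990 among the control arrays and from 0.952 to 0.964 between them. The first principal component of the 5000 genes that varied most over these 8 arrays held 80.7% of the variance of those genes. Control arrays varied more than cKO arrays, with a larger SD in control for 12098 genes and in cKO for 7407. The Y-linked genes *Eif2s3y*, *Kdm5d* and *Uty* split each group the same way, with a mean signal of 8.53 to 8.77 in replicates 1 and 2 and of 3.24 to 3.71 in replicates 3 and 4. This split was therefore balanced over the genotypes.

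Over the whole array, cKO nerve had 3600 of 19505 genes (18.5%) higher and 3022 (15.5%) lower at a Benjamini-Hochberg adjusted p under 0.05 from limma, together 34.0%. These shares are the background against which each gene group is read. The median change over all genes was -0.02. Of the called genes, 718 rose and 641 fell by at least 2-fold, 92 rose and 117 fell by at least 4-fold, and 13 rose and 36 fell by at least 8-fold. The most extreme changes were thus more often falls, although more genes rose than fell. In 5766 of the called genes no cKO array overlapped with a control array. Such a complete separation was seen for 33.4% of all genes.

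**Figure D1:**
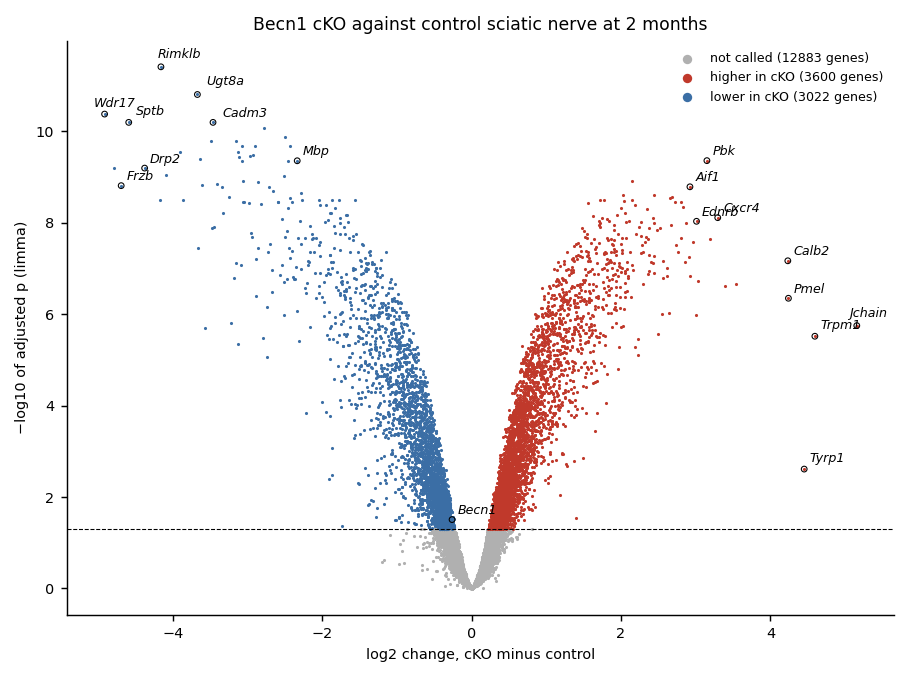
Log2 change of each of the 19505 genes (x axis, cKO minus control) against −log10 of its limma adjusted p (y axis), with the 3600 higher genes in red, the 3022 lower genes in blue and the dashed line at an adjusted p of 0.05. The genes with the largest falls, such as *Rimklb* and *Wdr17*, had smaller p-values than those with the largest rises, such as *Jchain* and *Tyrp1*, whose control arrays spread widely.

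The gene with the smallest p was *Rimklb*, which encodes a ligase that joins glutamate to N-acetylaspartate. Its signal was 10.53, 10.25, 10.52 and 10.25 in the 4 control arrays and 6.23, 6.12, 6.32 and 6.24 in the 4 cKO arrays. The arrays of each group spread over at most 0.28, and the nearest arrays of the 2 groups lay 3.93 apart (log2 change -4.16, standard error 0.10, adjusted p = 3.92e-12). *Wdr17*, a WD-repeat gene, had the largest fall in measured signal, from 8.19, 7.82, 7.90 and 7.75 in control to 2.92, 2.98, 3.35 and 2.77 in cKO nerve (log2 change -4.91, standard error 0.15, adjusted p = 4.23e-11). No background level is known for these arrays, so at such a low cKO signal the size of a fall, and its rank among other falls to low signal, is uncertain. The cytoskeletal genes *Septin3* (-4.79) and *Sptb*, a beta-spectrin (-4.59), the phospholipase gene *Plcb1* (-2.78), the vesicle protein gene *Vat1l* (-3.90) and *Prr15* (-3.66) also fell. The largest falls and rises were named only among called genes whose groups do not overlap, so their separation is a condition of the choice. Among the largest rises, though not the largest, was that of *Calb2*, the calcium-binding protein calretinin. Its signal was 5.58, 6.86, 5.42 and 4.97 in the control arrays and 9.38, 9.98, 10.29 and 10.11 in the cKO arrays (log2 change 4.23, standard error 0.30, adjusted p = 6.83e-08). *Kcnj10*, the glial potassium channel Kir4.1 (3.54), and *Nav2* (3.39) rose as well. For *Kcnj10*, *Nav2* and *Calb2*, control replicates 1 and 2 lay above control replicates 3 and 4, the order of the Y-linked genes. Among the 12 largest rises the same order held for *Jchain*, *Trpm1*, *Tyrp1*, *Pmel*, *Cxcr4* and *Pbk*, and not for *Id2*, *Cxcl10* or *Ednrb*. A link to the Y-linked split was not tested.

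Genes of the myelin sheath were lower with few exceptions. Of 15 measured genes of myelin proteins, 14 were lower and 1, the gap junction gene *Gjb1* (-0.16), was not called, with a median change of -1.19. The mean signal of these 15 genes was 10.40 to 10.97 in the control arrays and 9.11 to 9.32 in the cKO arrays. *Mbp*, the myelin basic protein that holds the compact sheath together, gave 13, 12.93, 13.13 and 12.87 in control nerve against 10.89, 10.56, 10.62 and 10.53 in cKO nerve. The cKO mean was 5.04-fold below that of control, with no overlap (log2 change -2.33, standard error 0.10, adjusted p = 4.44e-10). *Pmp22*, a compact myelin protein whose gene dosage causes demyelinating neuropathy in humans, was lower by a smaller step (log2 change -1.14, standard error 0.10, adjusted p = 3.86e-07). The largest fall of the list was that of *Dusp15*, a phosphatase gene of myelinating glia, at 11.31, 10.93, 11.05 and 11.03 in the 4 control arrays and 7.27, 7.54, 7.93 and 7.63 in the 4 cKO arrays. The highest cKO value lay 3.00 below the lowest control value (log2 change -3.48, standard error 0.13, adjusted p = 1.68e-10). *Bcas1*, a marker of myelinating glia, changed by -2.44. *Prx* was not analysed here.

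The complex that ties the sheath to the basal lamina changed unevenly. Dystroglycan at the Schwann cell surface binds laminin outside and, through Drp2 and periaxin, shapes the cytoplasmic bands of the internode. Of 11 measured members, 9 were lower and 2 higher. *Drp2* gave 11.75, 11.71, 11.73 and 11.61 in the control arrays and 8.11, 7.11, 7.16 and 6.92 in the cKO arrays. Control arrays agreed within 0.14 log2 units while cKO replicate 1 lay highest among the cKO arrays, still far below control (log2 change -4.38, standard error 0.19, adjusted p = 6.42e-10). *Sgcd*, delta-sarcoglycan, was lower as well (log2 change -2.92, standard error 0.12, adjusted p = 3.32e-10), and so was *Utrn*, utrophin, by a smaller step (log2 change -1.15, standard error 0.08, adjusted p = 4.49e-08). The 2 members that rose were *Dag1*, which encodes dystroglycan itself (0.47), and *Ezr*, ezrin, an actin linker of Schwann cell microvilli (1.66).

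At the node of Ranvier and along the internode, 12 of 19 measured adhesion and channel genes were lower, 2 higher and 5 not called. *Cadm3* and *Cadm4* encode nectin-like proteins that join axon and Schwann cell. *Cadm3* gave 9.84, 9.59, 9.48 and 9.32 in control nerve against 6.14, 6.14, 6.04 and 6.08 in cKO nerve and had one of the 6 smallest p-values of all genes (log2 change -3.46, standard error 0.11, adjusted p = 6.42e-11). *Cadm4* was lower by less (log2 change -1.59, standard error 0.10, adjusted p = 2.01e-08), whereas the related gene *Cadm1* was higher (1.88). *Nfasc*, neurofascin, which organizes node and paranode, fell from 10.12, 9.68, 9.85 and 9.49 in control to 7.87, 7.28, 7.59 and 7.29 in cKO nerve (log2 change -2.28, standard error 0.15, adjusted p = 2.92e-08). *Kcna1*, a potassium channel of the juxtaparanode, changed by -1.76. *Cntnap1*, the paranodal protein Caspr of the axon, was not called (log2 change 0.11, standard error 0.16, adjusted p = 0.641), and its groups overlapped.

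Lipid genes did not move as a block. Of 12 genes for ceramide and myelin galactolipids, 7 were lower and 4 higher, and the falls were the larger changes. *Ugt8a*, the enzyme that puts galactose on ceramide, gave 12.69, 12.40, 12.55 and 12.30 in the 4 control arrays and 9.02, 8.69, 8.83 and 8.73 in the 4 cKO arrays. The nearest arrays of the groups lay 3.28 apart, against a range of at most 0.39 within a group (log2 change -3.67, standard error 0.10, adjusted p = 1.58e-11). *Fa2h*, which hydroxylates the fatty acids of these lipids, followed (log2 change -3.06, standard error 0.14, adjusted p = 1.22e-09). *Degs1* (log2 change 0.79, standard error 0.10, adjusted p = 1.32e-05), which makes ceramide, and *Ormdl1* (1.11), a brake on the first step of sphingolipid synthesis, rose. *Gal3st1*, which makes sulfatide, was called at -0.50 (adjusted p = 0.0397), but its groups overlapped and the call was lost without control replicate 1 or 3 or cKO replicate 1, 3 or 4, with changes from -0.62 to -0.32 over the arrays left out.

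Among fatty acid genes, 6 of 15 were lower and 4 higher. *Elovl7*, an elongase of very long chains, gave 10.13, 9.44, 9.56 and 9.26 in the control arrays and 5.82, 4.79, 5.72 and 5.36 in the cKO arrays. This was a fall of 18.1-fold without overlap (log2 change -4.17, standard error 0.21, adjusted p = 3.14e-09). *Elovl6*, an elongase of shorter chains, fell less (log2 change -1.50, standard error 0.15, adjusted p = 1.85e-06), while the desaturase gene *Fads2* rose (log2 change 0.69, standard error 0.11, adjusted p = 0.000156). *Fasn*, fatty acid synthase, which fat cells also express, was highest in control replicate 4 at 10.33 and was not called (log2 change -0.13, standard error 0.25, adjusted p = 0.751). *Acaca*, acetyl-CoA carboxylase, was lower with overlapping groups (log2 change -0.77, standard error 0.22, adjusted p = 0.0138), a call lost without cKO replicate 1.

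Cholesterol synthesis genes went both ways at 2 months. Of 18 measured, 6 were higher, 4 lower and 8 not called, with a median of 0.23. The number of higher genes depended on single arrays. It was 10 without control replicate 1, and 3 without control replicate 3, cKO replicate 1 or cKO replicate 4. *Hmgcs1*, an early enzyme of the pathway, gave 12.91, 12.70, 12.73 and 12.64 in control nerve against 11.90, 11.80, 11.83 and 11.83 in cKO nerve. It was the member that fell most (log2 change -0.91, standard error 0.08, adjusted p = 8.87e-07). *Dhcr7*, which catalyses the last step to cholesterol, rose most (log2 change 1.05, standard error 0.11, adjusted p = 2.15e-06), and *Insig1*, a sterol sensor, rose by 0.73.

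**Figure D2:**
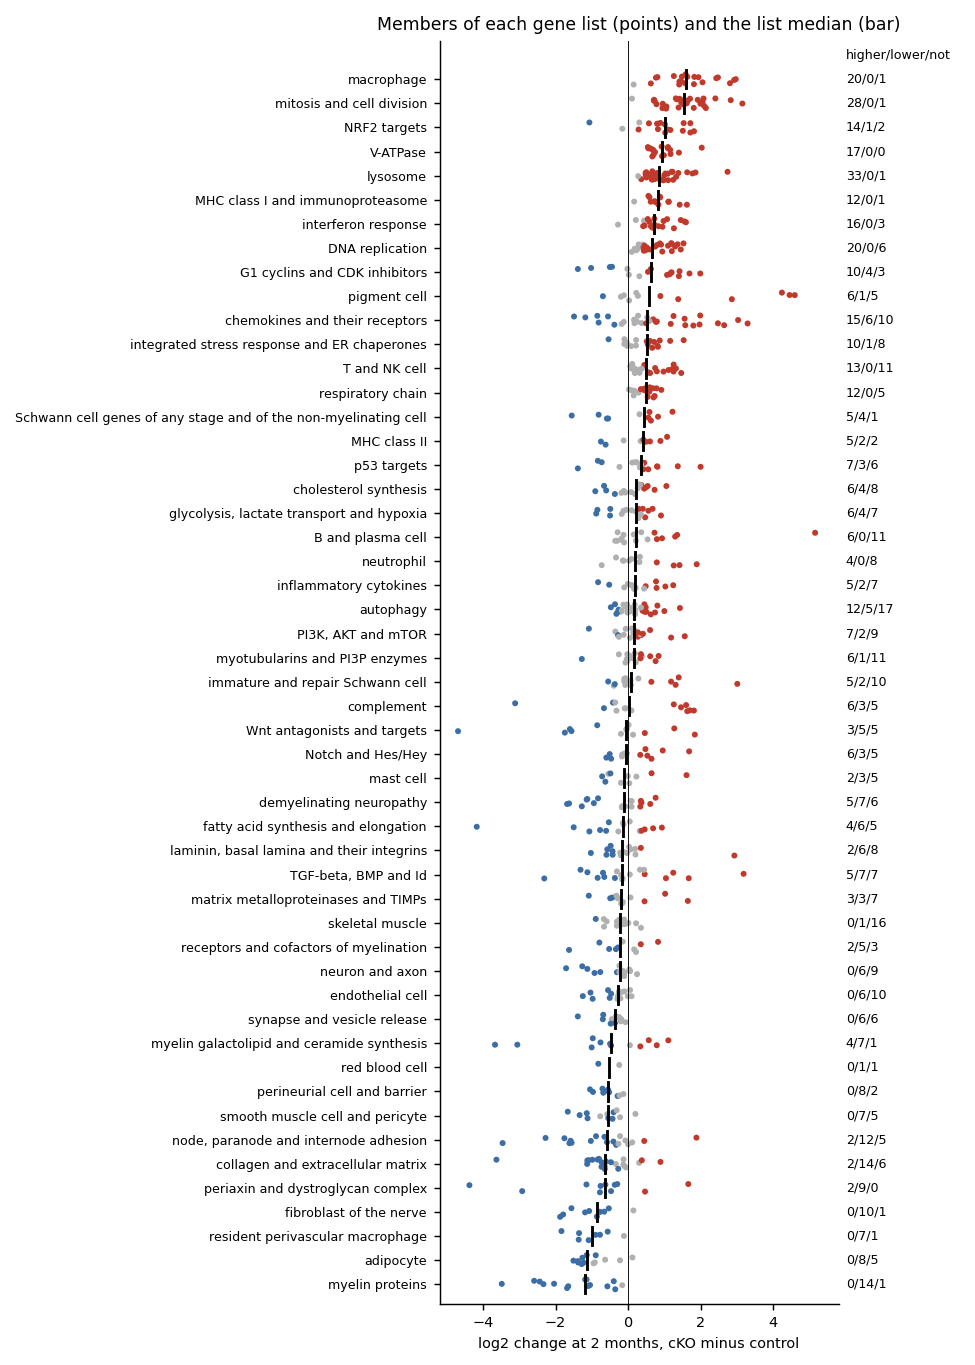
Log2 change (x axis, cKO minus control at 2 months) of every measured member of the 52 gene lists except the sex-linked one, with called rises in red, called falls in blue, uncalled genes in grey and the list median as a black bar. The numbers at the right count members higher, lower and not called, from macrophage genes at the top (20/0/1) to myelin proteins at the bottom (0/14/1).

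The regulators of myelination moved in both directions. *Egr2* was lower, at 10.04, 9.48, 9.77 and 9.49 in the 4 control arrays and 7.91, 8.60, 7.95 and 7.81 in the 4 cKO arrays. Its cKO replicate 2 lay above the other cKO arrays, and all cKO arrays lay below control (log2 change -1.63, standard error 0.16, adjusted p = 1.94e-06). *Nab1*, a cofactor of Egr2, fell (log2 change -0.79, standard error 0.11, adjusted p = 5.17e-05). The neuregulin receptor genes split. *Erbb3* rose (log2 change 0.82, standard error 0.12, adjusted p = 8.92e-05), while *Erbb2* fell by -0.34 (adjusted p = 0.0194), a call lost without control replicate 3 or cKO replicate 1. Of the 10 measured receptors and cofactors, 5 were lower and 2 higher, and only 1 was higher without control replicate 2 or 4 or without cKO replicate 2, 3 or 4.

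Genes of Schwann cells as a lineage moved in both directions. Of 10 genes of Schwann cells of any stage or of non-myelinating Schwann cells, 5 were higher, 4 lower and 1 not called, and the mean signal of the list overlapped between control (8.85 to 9.27) and cKO (9.06 to 9.17). *Sox10*, the lineage factor of Schwann cells, gave 9.20, 9.02, 8.79 and 8.91 in the control arrays and 9.35, 9.53, 9.63 and 9.65 in the cKO arrays. It was higher in each cKO array than in any control array (log2 change 0.56, standard error 0.11, adjusted p = 0.000695). *S100b*, a calcium-binding protein of glia, was lower (log2 change -0.81, standard error 0.12, adjusted p = 8.47e-05), and *Scn7a*, a sodium channel gene of non-myelinating Schwann cells, fell more (log2 change -1.55, standard error 0.08, adjusted p = 3.14e-09).

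Of 17 measured genes of the immature and the repair Schwann cell, 5 were higher, 2 lower and 10 not called, a mixed list with a median of 0.07. In this list 41.2% were called, against 34.0% of all genes, and the lower share was below the 15.5% of all genes. The lower count was 1 without control replicate 1, 2 or 3 or without cKO replicate 3 or 4. *Ednrb*, the endothelin receptor B of Schwann cell precursors and immature cells, gave 8.63, 9.56, 8.57 and 9.21 in control nerve against 11.86, 12.03, 12.08 and 12.04 in cKO nerve. The lowest cKO array exceeded the highest control array by 2.30 (log2 change 3.01, standard error 0.17, adjusted p = 9.35e-09). *Mcam* (log2 change 1.18, standard error 0.09, adjusted p = 9.02e-08), an adhesion molecule of early Schwann cells, and *Btc*, betacellulin (log2 change 1.39, standard error 0.12, adjusted p = 3.73e-07), a growth factor of injured nerve, also rose. *Ngfr*, the p75 neurotrophin receptor used as a marker of immature cells, was not called (log2 change -0.40, standard error 0.16, adjusted p = 0.0689), and neither was *Gdnf*, a trophic factor of repair cells (log2 change 0.28, standard error 0.13, adjusted p = 0.12).

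A few pigment-cell genes were far higher in cKO nerve. Schwann cells and melanocytes both arise from the neural crest. Of 12 pigment-cell genes, 6 were higher, 1, the pigment-lineage factor *Mitf* (-0.69), lower and 5 not called. *Tyrp1*, an enzyme of the melanosome, gave 10.19, 11.66, 4.57 and 8.82 in the 4 control arrays and 13.24, 13.21, 13.31 and 13.28 in the 4 cKO arrays. The cKO arrays agreed closely while the control arrays ran over 7.09 log2 units, with replicate 3 lowest and replicate 2 highest (log2 change 4.45, standard error 0.99, adjusted p = 0.00245). Without control replicate 3 the change was 3.04. *Trpm1*, a channel gene of melanocytes, showed the same order of control arrays at 8.38, 9.30, 5.90 and 7.16 in the control arrays and 12.17, 12.10, 12.41 and 12.42 in the cKO arrays (log2 change 4.59, standard error 0.48, adjusted p = 3.05e-06). *Pmel*, a melanosome scaffold, rose by 4.24 and *Gpnmb*, which macrophages also make, by 2.86.

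Genes of dividing cells rose almost without exception. The list for mitosis and cell division holds 29 measured genes, and 28 of them were higher and *Anln* (0.11) was not called, with a median of 1.53. No array of one group overlapped with the other in the list mean, which was 5.45 to 5.69 in control and 6.92 to 7.21 in cKO nerve. *Cdk1*, the kinase that starts mitosis, gave 3.74, 3.86, 3.30 and 3.51 in control nerve against 6.26, 6.52, 6.65 and 6.29 in cKO nerve (log2 change 2.83, standard error 0.15, adjusted p = 4.49e-09). *Pbk*, a mitotic kinase, rose most, from 4.76, 4.81, 4.47 and 4.39 in control to 7.63, 7.75, 7.75 and 7.91 in cKO nerve (log2 change 3.15, standard error 0.13, adjusted p = 4.41e-10). *Mki67*, which encodes Ki67, the common marker of cycling cells, gave 7.51, 7.75, 7.79 and 6.87 in the 4 control arrays and 9.26, 9.78, 9.65 and 9.56 in the 4 cKO arrays. Control replicate 4 was the lowest control array, and the groups were well apart (log2 change 2.08, standard error 0.17, adjusted p = 3.08e-07). *Nuf2*, a kinetochore gene, rose by 1.99.

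For DNA replication the median was smaller, 0.67, with 20 of 26 members higher, none lower and 6 not called. *Pcna*, the sliding clamp of DNA polymerase, rose (log2 change 1.36, standard error 0.10, adjusted p = 6.06e-08), as did the helicase subunits *Mcm2* (1.10) and *Mcm3* (1.20) and the nucleotide reductase subunit *Rrm2* (1.45). In the G1 machinery, 10 of 17 genes were higher and 4 lower. The G1 kinases *Cdk4* (log2 change 1.40, standard error 0.09, adjusted p = 2.94e-08) and *Cdk2* (log2 change 1.69, standard error 0.13, adjusted p = 1.3e-07) and cyclin D3, *Ccnd3* (log2 change 1.20, standard error 0.10, adjusted p = 2.19e-07), rose. The inhibitors split. *Cdkn1a*, which encodes p21, gave 9.62, 9.26, 9.17 and 8.90 in the control arrays and 8.13, 8.23, 7.52 and 7.52 in the cKO arrays. It was lower in every cKO array (log2 change -1.39, standard error 0.18, adjusted p = 1.87e-05), with *Cdkn1b* (p27) at -1.02, whereas *Cdkn2a*, which encodes p16 and p19Arf, was higher (1.99).

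*Cdkn1a* is also a target of p53, and the targets of p53 went both ways. Of 16 measured, 7 were higher, 3 lower and 6 not called. *Plk2*, a stress-responsive kinase, gave 9.20, 9.11, 9.08 and 8.69 in control nerve against 10.89, 11.07, 11.01 and 11.09 in cKO nerve. It was 3.99-fold higher without overlap (log2 change 2.00, standard error 0.11, adjusted p = 4.86e-09). *Eda2r*, a receptor of the TNF receptor family, rose (log2 change 1.37, standard error 0.14, adjusted p = 2.42e-06), and *Mdm2*, the ubiquitin ligase that limits p53, was not called (log2 change 0.19, standard error 0.09, adjusted p = 0.101).

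Stretches of sequence before the genes were examined for motifs known from such groups of genes. One promoter per gene, from 250 bases before to 50 bases after the annotated start, was read from the RefSeq table for GRCm38.p6, which holds 27025 gene symbols. For mitosis genes the letters of the cell cycle homology region, TTTGAA, were searched on both strands and found in 19 of 24 promoters (79.2%), against 18.1% of all promoters. For the lysosomal proton pump the E-box core CACGTG, which reads the same on both strands and is the centre of the element bound by TFEB and its relatives, was found in 4 of 11 promoters (36.4%) and in 7 of 29 lysosome promoters (24.1%), against 7.24% of all. For interferon-responsive genes GAAANNGAA was found in 12 of 16 promoters (75.0%), against 8.57% of all. For targets of NRF2, the factor of the oxidant response, TGACNNNGC was found in 4 of 13 (30.8%), against 12.5%. None of these motifs contains another, though matches of TTTGAA and GAAANNGAA can overlap, and a match is a description of the window, not a binding site. One promoter for each of 3 groups is shown because its gene had the smallest p among the members with a match. Capitals mark the motif.
Cdk1: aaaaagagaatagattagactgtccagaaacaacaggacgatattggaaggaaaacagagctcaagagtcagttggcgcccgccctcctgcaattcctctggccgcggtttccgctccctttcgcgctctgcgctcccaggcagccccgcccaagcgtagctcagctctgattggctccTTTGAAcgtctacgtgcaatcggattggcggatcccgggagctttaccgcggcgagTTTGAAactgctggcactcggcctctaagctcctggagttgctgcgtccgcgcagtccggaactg
Atp6v1a: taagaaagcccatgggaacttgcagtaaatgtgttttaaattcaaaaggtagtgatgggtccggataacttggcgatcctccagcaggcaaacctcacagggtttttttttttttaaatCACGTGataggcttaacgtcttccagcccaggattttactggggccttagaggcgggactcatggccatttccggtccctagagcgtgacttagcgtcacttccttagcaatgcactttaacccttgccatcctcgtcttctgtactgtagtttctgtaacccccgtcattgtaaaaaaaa
Irgm1: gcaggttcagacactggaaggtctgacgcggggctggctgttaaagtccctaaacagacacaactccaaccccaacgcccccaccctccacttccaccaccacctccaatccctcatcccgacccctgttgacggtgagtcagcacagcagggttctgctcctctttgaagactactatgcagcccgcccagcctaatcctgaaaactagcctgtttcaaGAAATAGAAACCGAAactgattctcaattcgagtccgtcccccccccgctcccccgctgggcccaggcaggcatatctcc
The promoter of *Cdk1* lies at chr10:69352863-69353162 on the minus strand and holds 2 matches, the first 71 bases before the start. The promoter of *Atp6v1a* lies at chr16:44139210-44139509 on the minus strand and holds 1 match, 131 bases before the start. The promoter of *Irgm1* lies at chr11:48871371-48871670 on the minus strand and holds 2 matches that overlap, the first 30 bases before the start.

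The genes of the oxidant response rose. Of 17 measured targets of NRF2, 14 were higher, 1 lower and 2 not called, with a median of 1.01. *Srxn1*, sulfiredoxin, gave 7.06, 7.31, 7.09 and 7.06 in the 4 control arrays and 8.97, 8.93, 8.68 and 8.80 in the 4 cKO arrays (log2 change 1.72, standard error 0.10, adjusted p = 1.24e-08). *Txnrd1*, thioredoxin reductase, rose by the same amount (log2 change 1.72, standard error 0.10, adjusted p = 9.99e-09), and *Nqo1*, a quinone reductase, rose most (log2 change 1.82, standard error 0.14, adjusted p = 1.11e-07). *Hmox1*, haem oxygenase, was not called, with control replicate 4 lowest and control replicate 1 as high as any cKO array (log2 change 0.31, standard error 0.16, adjusted p = 0.166). The 1 member that fell was *Me1*, malic enzyme (-1.07), which also supplies NADPH for fatty acid synthesis.

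Of 19 genes of the integrated stress response and of chaperones of the endoplasmic reticulum, 10 were higher, 1 lower and 8 not called. The transcription factors *Atf4* (log2 change 0.51, standard error 0.11, adjusted p = 0.00134) and *Ddit3*, which encodes CHOP (log2 change 0.81, standard error 0.11, adjusted p = 4.69e-05), rose modestly. Genes of amino acid supply in the list went both ways. *Slc7a11*, the cystine transporter, gave 6.35, 6.35, 6.21 and 6.25 in the control arrays and 7.79, 7.97, 7.75 and 7.78 in the cKO arrays, with each group within 0.23 log2 units (log2 change 1.53, standard error 0.10, adjusted p = 4.2e-08). *Mthfd2* rose by 1.16 and *Asns*, asparagine synthetase, by 0.87. *Phgdh*, the first enzyme of serine synthesis, was the member that fell (-0.54).

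Autophagy genes moved in both directions. Of 34 measured, 12 were higher, 5 lower and 17 not called, with a median of 0.17. The 5 lower genes include the deleted gene *Becn1* itself (-0.26). The count of 5 lower genes was 2 or 3 without control replicate 1, 2 or 3 or cKO replicate 1, 2 or 4. *Sqstm1*, which encodes the cargo receptor p62, gave 9.83, 10.02, 9.69 and 9.55 in control nerve against 11.23, 11.23, 11.14 and 11.20 in cKO nerve. The cKO arrays agreed within 0.09 log2 units, and the lowest lay 1.12 above the highest control array (log2 change 1.43, standard error 0.10, adjusted p = 5.2e-08). *Gabarap* (log2 change 0.81, standard error 0.09, adjusted p = 5.36e-06), a ubiquitin-like protein of the autophagosome, and *Atg7* (log2 change 0.74, standard error 0.12, adjusted p = 0.00019), the enzyme that activates it, rose by less. Among 18 genes of myotubularins and other enzymes of phosphatidylinositol 3-phosphate, 6 were higher, 1 lower (2 without cKO replicate 2) and 11 not called. In this list 38.9% were called, near the 34.0% of all genes. *Mtmr2*, a phosphatase of this lipid that is mutated in a human demyelinating neuropathy, rose (log2 change 0.76, standard error 0.10, adjusted p = 1.72e-05), as did *Mtmr10* (0.84), and *Mtm1*, myotubularin, was not called (log2 change 0.36, standard error 0.15, adjusted p = 0.089). The *Mtmr2* partner *Sbf2*, mutated in a related neuropathy, fell from 10.91, 10.67, 10.85 and 10.68 in control to 9.30, 9.59, 9.51 and 9.59 in cKO nerve (log2 change -1.28, standard error 0.09, adjusted p = 9.69e-08).

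Lysosomal genes rose nearly as a whole. Of 34 measured lysosome genes, 33 were higher, none lower, and *Ctsk* (0.28) was not called, with a median of 0.85. All 17 measured subunits of the V-ATPase, the pump that acidifies the lysosome, were higher, by 0.54 to 2.03. *Hexa*, a hexosaminidase subunit, gave 8.52, 8.76, 8.42 and 8.56 in the 4 control arrays and 10.29, 10.40, 10.32 and 10.36 in the 4 cKO arrays (log2 change 1.77, standard error 0.09, adjusted p = 3.14e-09). *Atp6v1b2*, the subunit that rose most, gave 8.43, 8.54, 8.36 and 8.09 in the control arrays and 10.30, 10.40, 10.43 and 10.41 in the cKO arrays. Its lowest cKO array lay 1.76 above the highest control array, and that of *Hexa* 1.53 (log2 change 2.03, standard error 0.10, adjusted p = 2.54e-09 for *Atp6v1b2*). The V-ATPase genes *Atp6v1c1* (1.17), *Atp6ap2* (0.93) and *Atp6v0d1* (0.66) rose without overlap. *Lamp1*, a membrane protein of every lysosome, rose by 0.72, and the protease genes *Lgmn* (1.63) and *Ctss* (2.74), both abundant in macrophages, rose more. Macrophage genes rose in the same arrays, and their part in the lysosomal rise was not tested.

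In PI3K, AKT and mTOR signalling, 7 of 18 genes were higher, 2 lower (1 without control replicate 2, cKO replicate 1 or cKO replicate 4) and 9 not called. *Inpp5d* (log2 change 1.56, standard error 0.11, adjusted p = 4.48e-08), the phosphatase SHIP1, and *Pik3cg* (log2 change 1.18, standard error 0.12, adjusted p = 2.68e-06), the gamma catalytic subunit, are best known from blood cells. *Pik3r1*, the regulatory subunit p85-alpha, fell from 11.51, 11.41, 11.33 and 11.28 in control to 10.20, 10.41, 10.28 and 10.30 in cKO nerve (log2 change -1.08, standard error 0.09, adjusted p = 1.7e-07). *Akt1* rose by 0.35 (adjusted p = 0.00721) and *Pik3ca*, the alpha catalytic subunit, by 0.27 (adjusted p = 0.02), and neither was called with both arrays numbered 2 left out. *Pik3ca* was also not called without control replicate 3 or cKO replicate 4.

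Genes of TGF-beta, Wnt and Notch signalling changed in both directions. *Id2*, a nuclear inhibitor of differentiation in the list of TGF-beta, BMP and Id genes, gave 7.37, 8.59, 7.52 and 8.02 in control nerve against 10.89, 10.90, 11.19 and 11.25 in cKO nerve. The lowest cKO array lay 2.30 above the highest control array (log2 change 3.18, standard error 0.20, adjusted p = 2.23e-08). *Tgfb1* (log2 change 1.24, standard error 0.11, adjusted p = 5.15e-07) and its receptor gene *Tgfbr1* (log2 change 1.67, standard error 0.11, adjusted p = 4.51e-08) rose, and *Bmp7* fell (-2.31). Of the 19 genes of this list, 5 were higher, 7 lower and 7 not called. Among Wnt antagonists and targets, *Frzb*, a secreted antagonist, fell from 9.96, 9.10, 9.39 and 8.61 in control to 4.68, 4.33, 4.43 and 4.86 in cKO nerve (log2 change -4.69, standard error 0.22, adjusted p = 1.55e-09). *Sfrp4*, another antagonist, fell by less (log2 change -1.56, standard error 0.12, adjusted p = 1.05e-07), whereas *Dkk3* rose (log2 change 1.84, standard error 0.13, adjusted p = 7.3e-08), and the Wnt target *Axin2* was not called (log2 change -0.05, standard error 0.15, adjusted p = 0.833). In the Notch list, with 6 of 14 higher and 3 lower, the receptor gene *Notch1* rose by 0.53 and *Notch2* changed by -0.47, and the Notch effector *Hey2* was higher at 6.54, 6.57, 6.20 and 6.59 in the 4 control arrays and 8.59, 7.61, 8.40 and 8.03 in the 4 cKO arrays (log2 change 1.68, standard error 0.18, adjusted p = 3.16e-06). *Nrarp*, a Notch target, rose by 0.95.

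**Figure D3:**
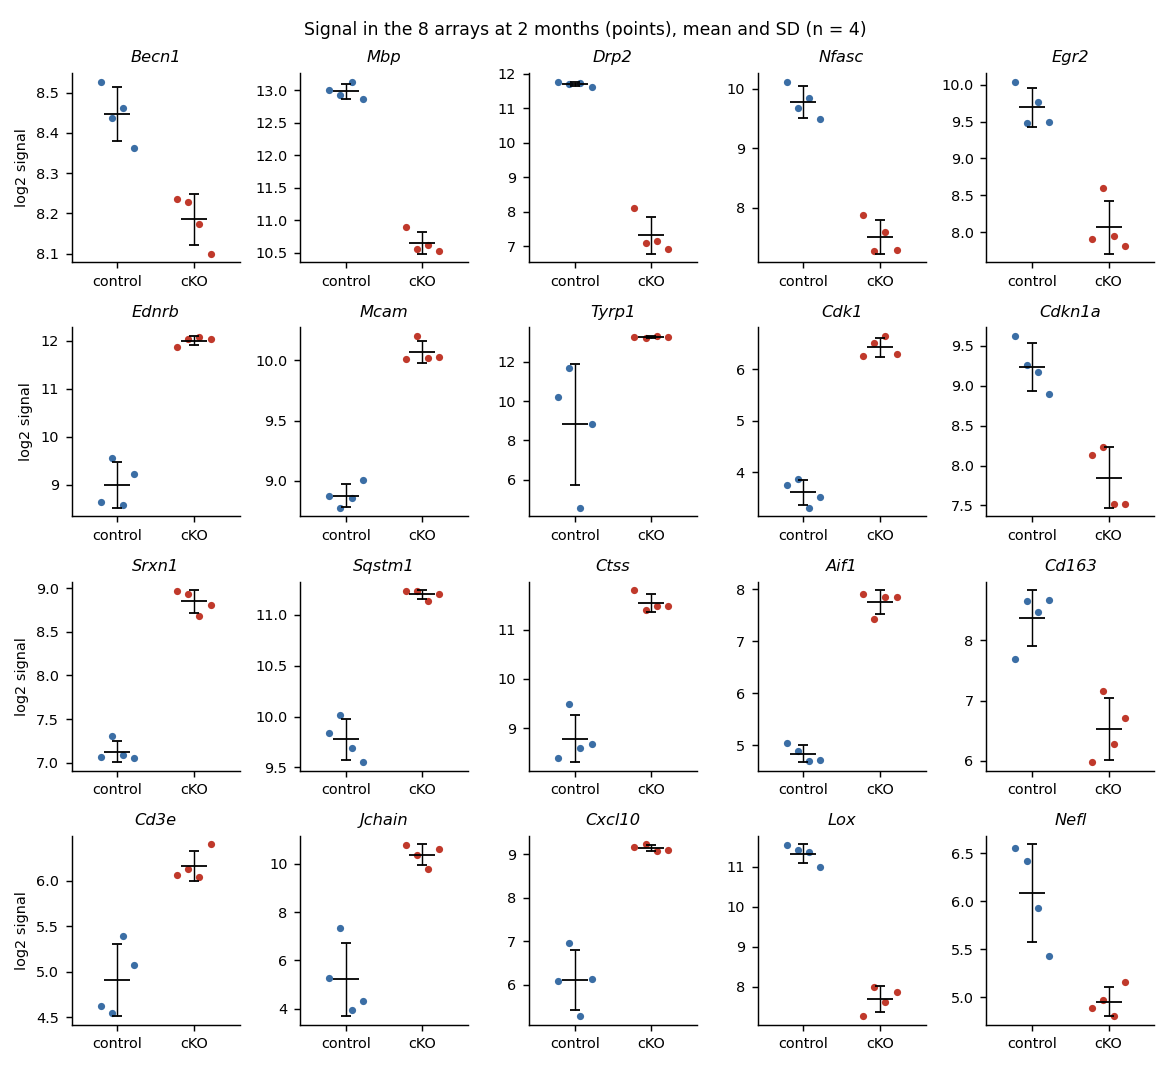
Log2 signal of 20 genes in each of the 4 control (blue) and 4 cKO (red) arrays at 2 months, with the group mean and SD (n = 4) in black; the y axis differs between panels. The 20 genes are a selection from the named genes, and other named genes overlap between the groups. In each panel all cKO arrays lie on one side of all control arrays, which holds for 33.4% of all genes. The group means differ by 0.26 for *Becn1* and by 5.16 for *Jchain*.

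Macrophage genes had the highest median change of the 52 lists. Of 21 measured, 20 were higher, none lower, and *Msr1* (0.15) was not called, with a median of 1.59. The list mean was 7.18 to 7.59 in control and 8.99 to 9.26 in cKO nerve. *Adgre1*, which encodes F4/80, gave 7.74, 8.38, 8.23 and 8.03 in the control arrays and 9.74, 9.64, 9.67 and 9.69 in the cKO arrays (log2 change 1.59, standard error 0.12, adjusted p = 1.12e-07). *Aif1*, which encodes Iba1, rose from 5.05, 4.89, 4.70 and 4.72 in control to 7.92, 7.43, 7.85 and 7.86 in cKO nerve (log2 change 2.92, standard error 0.14, adjusted p = 1.65e-09). *Ms4a7* (2.81), *Mpeg1* (2.97) and the complement gene *C1qc* (1.81), all of macrophages, moved alike. In contrast, of 8 genes of resident macrophages around vessels, 7 were lower, none higher, and *Mrc1* (-0.12) was not called. *Cd163*, a scavenger receptor of these cells, gave 7.69, 8.65, 8.47 and 8.68 in control nerve against 5.98, 7.16, 6.28 and 6.72 in cKO nerve. It was lower in every cKO array despite a wide spread (log2 change -1.84, standard error 0.24, adjusted p = 2.57e-05). *Lyve1* (log2 change -1.36, standard error 0.23, adjusted p = 0.000325), *F13a1* (log2 change -1.35, standard error 0.17, adjusted p = 1.46e-05) and *Folr2* (log2 change -1.09, standard error 0.15, adjusted p = 5.7e-05) fell too. The mean of this list was lowest among the control arrays in replicate 1 (7.58) and highest in replicate 4 (8.37), as were the adipocyte mean (7.11 and 8.91) and the fibroblast mean (9.09 and 9.61), and in cKO nerve replicates 2 and 4 were the highest for all 3 lists. The part of these cells in the falls was not tested.

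Lymphocyte genes were higher or not called. Of 24 genes of T and NK cells, 13 were higher, none lower and 11 not called. *Cd3e*, a chain of the T cell receptor complex, gave 4.62, 4.55, 5.40 and 5.08 in the 4 control arrays and 6.06, 6.13, 6.04 and 6.40 in the 4 cKO arrays (log2 change 1.25, standard error 0.18, adjusted p = 6.46e-05), and *Cd3g*, another chain, rose by 1.25. *Cd8b1*, a co-receptor chain of cytotoxic T cells, rose (log2 change 1.46, standard error 0.14, adjusted p = 1.39e-06), while *Cd8a* was not called (log2 change 0.44, standard error 0.17, adjusted p = 0.057). The cytokine receptor chain *Il2rb* rose by 1.32. Among 17 genes of B and plasma cells, 6 were higher and 11 not called. *Jchain*, the joining chain of secreted antibodies, had the largest rise of all genes at 5.26, 7.33, 3.95 and 4.32 in the control arrays and 10.75, 10.37, 9.77 and 10.59 in the cKO arrays. The control arrays ran from 3.95 in replicate 3 to 7.33 in replicate 2 (log2 change 5.16, standard error 0.51, adjusted p = 1.79e-06), and without control replicate 2 the change was 5.86. The other higher members rose by less, such as *Blnk* (1.30) and *Cd22* (1.35), and 1 member was lower when control replicate 1 or 3 was left out.

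Of 12 neutrophil genes, 4 were higher, none lower (1 without control replicate 1) and 8 not called. *Csf3r*, the receptor for granulocyte colony-stimulating factor, rose (log2 change 1.89, standard error 0.15, adjusted p = 1.38e-07), as did *S100a8* (log2 change 1.26, standard error 0.27, adjusted p = 0.0019) and *Retnlg* (log2 change 1.42, standard error 0.22, adjusted p = 0.000117). *S100a9*, the partner of *S100a8* in calprotectin, gave 5.12, 5.40, 6.54 and 5.61 in control nerve against 6.67, 6.31, 6.17 and 6.68 in cKO nerve. Its groups overlapped (log2 change 0.79, standard error 0.24, adjusted p = 0.0187), and the call was lost without control replicate 1 or 2, without cKO replicate 1 or 4, and without both arrays numbered 2. Mast cell genes split. *Kit*, the stem cell factor receptor, which melanocytes share, gave 6.19, 6.79, 6.25 and 6.89 in the 4 control arrays and 7.81, 8.22, 8.24 and 8.28 in the 4 cKO arrays (log2 change 1.61, standard error 0.16, adjusted p = 2.27e-06). *Tpsb2*, a tryptase, was lower (log2 change -0.63, standard error 0.16, adjusted p = 0.00644) with overlapping groups, *Hdc*, which makes histamine, was higher (0.65), and *Cpa3*, a mast cell protease, missed the call (log2 change -0.54, standard error 0.20, adjusted p = 0.0501). Of the 10 mast cell genes 3 were lower, or 5 without control replicate 1.

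**Figure D4:**
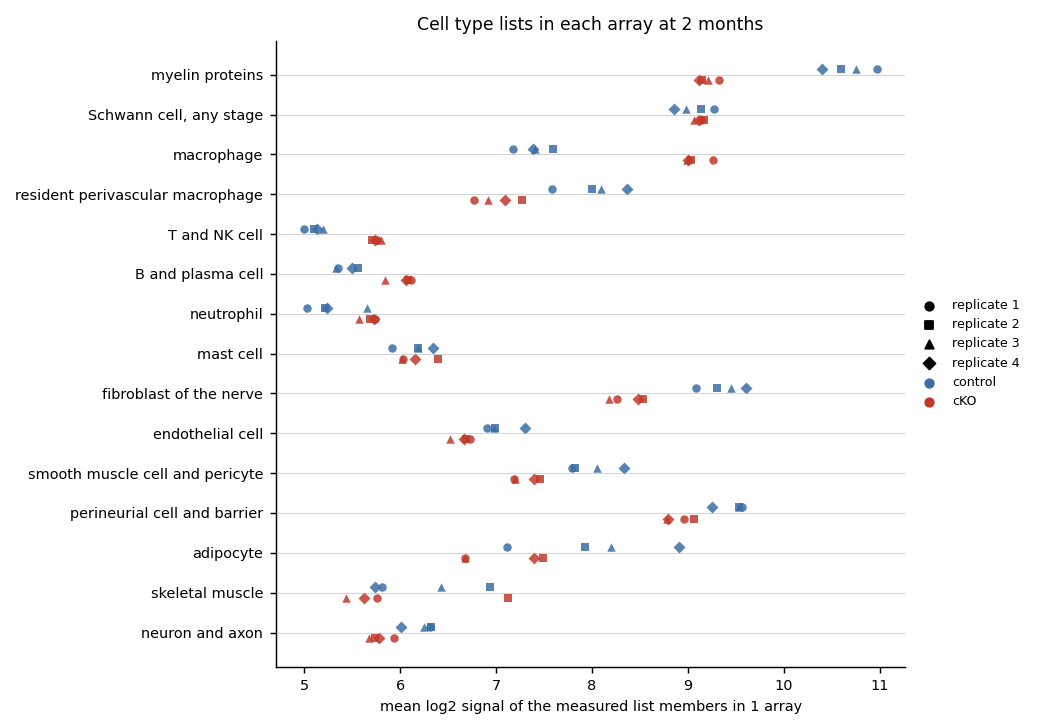
Mean log2 signal of the measured members of 15 cell type lists (x axis) in each control (blue) and cKO (red) array at 2 months, with the marker shape giving the replicate number. Macrophage means lie at 7.18 to 7.59 in control and 8.99 to 9.26 in cKO arrays, while adipocyte and skeletal muscle means spread within both groups and overlap between them.

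Transcripts of genes for antigen presentation by class I rose. Of 13 genes of MHC class I and the immunoproteasome, 12 were higher, none lower, and *Tapbp* (0.17) was not called. *B2m*, the light chain of all class I molecules, gave 12.52, 12.57, 12.34 and 12.47 in the control arrays and 13.59, 13.55, 13.59 and 13.61 in the cKO arrays. The arrays of each group lay within 0.23 log2 units (log2 change 1.11, standard error 0.08, adjusted p = 1.02e-07). The heavy chains *H2-D1* (log2 change 1.62, standard error 0.14, adjusted p = 3e-07) and *H2-K1* (log2 change 1.42, standard error 0.12, adjusted p = 4.14e-07) and the peptide transporter *Tap1* (0.88) rose, though probes for these chains can be shared between related class I genes. Class II genes moved less evenly, with 5 of 9 higher and 2 lower. *H2-Eb1* gave 8.32, 8.43, 8.37 and 8.39 in control nerve against 10.16, 9.45, 9.11 and 9.08 in cKO nerve, with cKO replicate 1 highest (log2 change 1.07, standard error 0.18, adjusted p = 0.000255). *H2-Aa* rose (log2 change 0.89, standard error 0.18, adjusted p = 0.00129) and *H2-DMb1* fell (log2 change -0.75, standard error 0.13, adjusted p = 0.0003), and the higher count was 3 without control replicate 2, cKO replicate 1 or cKO replicate 2. *Ciita*, the activator of class II genes, was higher with overlapping groups (log2 change 0.49, standard error 0.16, adjusted p = 0.0313), a call lost without control replicate 2 or 3 or cKO replicate 1 or 2.

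Of 19 interferon-responsive genes, 16 were higher, none lower (1 without control replicate 4) and 3 not called. *Ifit1*, an antiviral RNA-binding protein, gave 6.62, 7.19, 6.54 and 6.85 in the 4 control arrays and 8.32, 8.08, 8.58 and 8.42 in the 4 cKO arrays (log2 change 1.55, standard error 0.15, adjusted p = 9.65e-07). *Irgm1*, a GTPase of the interferon response, was steady among the control arrays and rose (log2 change 1.26, standard error 0.10, adjusted p = 1.98e-07), as did *Bst2*, tetherin (log2 change 1.45, standard error 0.13, adjusted p = 5.16e-07). *Cxcl10*, a chemokine induced by interferon, gave 6.08, 6.97, 5.27 and 6.12 in the control arrays and 9.16, 9.23, 9.07 and 9.11 in the cKO arrays. The cKO arrays agreed within 0.16 log2 units (log2 change 3.03, standard error 0.24, adjusted p = 1.85e-07).

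Chemokines and their receptors included rises and falls, with 15 of 31 higher, 6 lower and 10 not called. *Cxcr4*, the receptor for Cxcl12, gave 6.65, 7.23, 6.56 and 6.11 in control nerve against 9.61, 10.14, 10.06 and 9.89 in cKO nerve, one of the largest rises of all (log2 change 3.29, standard error 0.19, adjusted p = 7.78e-09). Its ligand *Cxcl12* fell (log2 change -1.18, standard error 0.14, adjusted p = 7.17e-06). The monocyte attractant *Ccl2* (log2 change 1.58, standard error 0.16, adjusted p = 1.94e-06), the fractalkine receptor *Cx3cr1* of macrophages (log2 change 2.48, standard error 0.15, adjusted p = 1.45e-08) and *Cxcl16* (log2 change 1.80, standard error 0.12, adjusted p = 4.53e-08) rose. Of 14 inflammatory cytokine genes, 5 were higher and 2 lower. *Tnf* rose by 0.78 and *Il1b* by 1.03, while *Il33*, an alarmin of stromal cells, fell from 10.63, 10.47, 10.58 and 10.39 in control to 9.76, 9.79, 9.64 and 9.57 in cKO nerve (log2 change -0.83, standard error 0.09, adjusted p = 3.6e-06). In the complement list, *C4b* (1.26) and the receptor *C3ar1* (1.70) rose, and *Cd55*, which protects host cells from complement, fell from 9.73, 9.58, 9.78 and 9.51 in control to 6.24, 6.76, 6.38 and 6.76 in cKO nerve (log2 change -3.12, standard error 0.13, adjusted p = 3.6e-10).

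Genes of the collagen matrix fell. Of 22 measured, 14 were lower, 2 higher (1 without cKO replicate 3) and 6 not called. *Lox*, lysyl oxidase, which crosslinks collagen, gave 11.53, 11.40, 11.37 and 10.99 in the 4 control arrays and 7.27, 7.99, 7.62 and 7.88 in the 4 cKO arrays. The highest cKO array lay 3.00 below the lowest control array (log2 change -3.63, standard error 0.15, adjusted p = 4.07e-10). *Col1a1*, a chain of collagen I, fell (log2 change -0.99, standard error 0.08, adjusted p = 3.67e-07), as did *Col6a2* (log2 change -1.12, standard error 0.10, adjusted p = 3.47e-07), whereas fibronectin, *Fn1*, was not called (log2 change -0.34, standard error 0.14, adjusted p = 0.0767). *Postn*, periostin, was higher (0.89). In the basal lamina, *Lama1*, a laminin chain of embryonic basal laminae, gave 6.49, 7.08, 6.08 and 6.30 in the control arrays and 8.72, 9.43, 9.69 and 9.84 in the cKO arrays. It was higher in every cKO array (log2 change 2.93, standard error 0.23, adjusted p = 1.45e-07), while *Lama2*, the main laminin chain of Schwann cells, was not called (log2 change 0.03, standard error 0.09, adjusted p = 0.867). Of the 16 laminin and integrin genes, 6 were lower, among them the laminin receptor subunits *Itgb4* (-0.48) and *Itga3* (-1.03) and the laminin chain *Lamb1* (-0.60), 2 higher and 8 not called. *Timp1*, an inhibitor of metalloproteinases that rises after nerve injury, gave 5.98, 5.88, 4.50 and 5.27 in control nerve against 7.73, 6.64, 6.91 and 6.93 in cKO nerve (log2 change 1.65, standard error 0.29, adjusted p = 0.000354), and *Mmp14*, a membrane metalloproteinase, rose by 1.02, while *Mmp2*, a gelatinase, fell (-0.44).

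The cells that surround and supply the fibres had lower marker signal. Of 11 fibroblast genes, 10 were lower, none higher (1 without control replicate 1), and *Etv1* (0.14) was not called. *Dpt*, dermatopontin, gave 9.29, 10.11, 10.55 and 11.08 in the 4 control arrays and 7.32, 8.78, 8.25 and 9.17 in the 4 cKO arrays. Its control and cKO arrays nearly met, at 9.29 and 9.17 (log2 change -1.88, standard error 0.36, adjusted p = 0.000868). *Clec3b* fell as well (log2 change -1.79, standard error 0.22, adjusted p = 1.37e-05), as did *Abca9* (-0.86) and *Gsn*, gelsolin (-0.78). Of 10 perineurial and barrier genes, 8 were lower and 2 not called, the lower ones including *Abcb1a*, an efflux pump (log2 change -0.97, standard error 0.10, adjusted p = 2.56e-06), *Tjp1*, a tight junction protein (log2 change -0.56, standard error 0.08, adjusted p = 7.39e-05), and *Msln*, mesothelin (-1.05). *Cldn1*, a claudin of the perineurial barrier, fell by less (log2 change -0.29, standard error 0.10, adjusted p = 0.0314), a call lost without control replicate 2 or 3 or cKO replicate 3 or 4, and the glucose transporter gene *Slc2a1* was not called (-0.13). Among 12 genes of smooth muscle cells and pericytes 7 were lower, with the contractile gene *Tagln* at -1.66, *Acta2* at -1.14, the kinase gene *Mylk* at -1.34 and the channel subunit gene *Abcc9* at -1.12, and the pericyte receptor *Pdgfrb* was not called (log2 change 0.20, standard error 0.09, adjusted p = 0.0977). The endothelial list was less affected, with 6 of 16 lower and 10 not called. The vessel receptor *Tek* fell (log2 change -1.25, standard error 0.19, adjusted p = 0.00011), as did the tight junction gene *Cldn5* (-1.04) and the VEGF receptor gene *Kdr* (-0.98), while *Pecam1*, found on all endothelium, was not called (log2 change -0.19, standard error 0.16, adjusted p = 0.412), nor was the cadherin gene *Cdh5* (-0.27). Of 2 measured red blood cell genes, *Alas2*, of haem synthesis, was lower (-0.82), a call lost without both arrays numbered 2.

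Genes of fat and muscle differed between arrays of the same group. *Adipoq*, the adipocyte hormone adiponectin, gave 8.85, 9.46, 10.53 and 10.87 in the control arrays and 7.84, 8.86, 7.91 and 9.06 in the cKO arrays. Control replicates 3 and 4 were highest, and the groups overlapped (log2 change -1.51, standard error 0.37, adjusted p = 0.00522). Of 13 adipocyte genes, 8 were lower and 5 not called, but 5 were lower without cKO replicate 1 and 4 without cKO replicate 3. The lipid droplet genes *Cidec* (-1.23) and *Plin1* (-1.28) and lipoprotein lipase, *Lpl* (-0.89), were lower with overlapping groups, and the call of *Plin1* was lost in 5 of the 8 fits with 1 array left out. Skeletal muscle genes were highest in replicate 2 of both groups, with list means of 6.94 in control and 7.12 in cKO against 5.43 to 6.43 in the other arrays. Of 17 muscle genes, only *Casq1* was lower (log2 change -0.89, standard error 0.22, adjusted p = 0.00517), with overlapping groups, and it was not called in a single fit of the 16 arrays. The count was 5 without cKO replicate 2 and 2 without control replicate 1. *Acta1* (-0.67) and *Ckm* (-0.21), of the contractile fibre and its energy supply, were not called. With both arrays numbered 2 left out, 2951 genes were higher and 2423 lower over all.

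Transcripts of axons and synapses in the nerve were lower or not called. The cell bodies of these axons lie outside the nerve, so these transcripts can come from axons or from any other cell of the nerve. Their source was not tested. Of 15 neuron and axon genes, 6 were lower, none higher and 9 not called. *Nefl*, the light neurofilament, gave 6.55, 6.42, 5.93 and 5.43 in control nerve against 4.89, 4.97, 4.81 and 5.16 in cKO nerve. The control arrays spread over 1.11 log2 units, and the cKO arrays lay below them (log2 change -1.12, standard error 0.20, adjusted p = 0.00052). *Sncg*, gamma-synuclein (log2 change -1.71, standard error 0.18, adjusted p = 2.7e-06), and *Stmn2*, a tubulin-binding protein of growing axons (log2 change -1.26, standard error 0.16, adjusted p = 2.09e-05), fell too, and peripherin, *Prph*, was not called (log2 change -0.15, standard error 0.15, adjusted p = 0.491). Of 12 genes of synapses and vesicle release, 6 were lower, none higher and 6 not called. *Snap25*, a fusion protein of synaptic vesicles, fell from 6.63, 6.30, 6.13 and 5.52 in control to 4.90, 4.85, 4.61 and 4.67 in cKO nerve (log2 change -1.39, standard error 0.19, adjusted p = 4.88e-05), and *Syp*, synaptophysin, changed by -0.69. *Cplx1*, complexin, fell by less (-0.70), and *Syt1*, synaptotagmin, was barely called (log2 change -0.36, standard error 0.13, adjusted p = 0.0475), a call lost in 5 of the 8 fits with 1 array left out.

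Energy genes moved in part. Of 17 genes of the respiratory chain, 12 were higher, none lower and 5 not called. *Cox5a*, a subunit of cytochrome oxidase, gave 7.30, 7.57, 6.82 and 7.36 in the 4 control arrays and 8.04, 8.12, 8.33 and 8.22 in the 4 cKO arrays (log2 change 0.92, standard error 0.14, adjusted p = 0.000118), and *Ndufs1*, of complex I, rose by less (log2 change 0.60, standard error 0.09, adjusted p = 0.000145). *Ndufa4* (0.78) and *Cox4i1* (0.70) rose too. Of 17 genes of glycolysis, lactate transport and hypoxia, 6 were higher and 4 lower. *Ldha*, lactate dehydrogenase, rose (log2 change 0.56, standard error 0.10, adjusted p = 0.000515), as did *Pgk1*, of glycolysis (0.67). *Slc16a1*, the lactate transporter MCT1 through which Schwann cells feed axons, gave 10.34, 10.22, 10.39 and 10.12 in the control arrays and 9.56, 9.28, 9.50 and 9.34 in the cKO arrays. It was lower without overlap (log2 change -0.85, standard error 0.10, adjusted p = 5.88e-06), and *Pdk1*, a kinase that inhibits pyruvate dehydrogenase, fell by a similar amount (log2 change -0.88, standard error 0.12, adjusted p = 2.65e-05).

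The genes of human demyelinating neuropathies cut across these groups. Of 18 measured, 7 were lower, 5 higher (3 without cKO replicate 1) and 6 not called. The lower ones included *Pmp22*, *Egr2* and *Sbf2*, given above, and *Pmp2*, a fatty acid carrier of myelin (-1.68), while *Mtmr2* rose most.

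The effect of the deletion at 2 months was then set against that at P10 with an interaction term fitted to all 16 arrays. At an adjusted p under 0.05, the effect at 2 months minus that at P10 was positive (upward) for 1499 genes (7.69% of those tested). It was negative (downward) for 895 (4.59%). The sign alone does not say at which age the effect was larger. *Hey2*, for example, is downward because it rose by 3.4 at P10 and by 1.7 at 2 months. By number of genes, the lists with the most upward interactions were macrophage, 19 of 21, lysosome, 19 of 34, and cholesterol synthesis, 14 of 18. MHC class I and the immunoproteasome had 9 of 13. The median macrophage change was 0.24 at P10 and 1.59 at 2 months. For cholesterol synthesis it was -0.82 at P10 and 0.23 at 2 months, so that the list was lower in young and mixed in adult cKO nerve. By contrast, 9 of 29 mitosis genes passed upward and 1 downward, and their median was already 1.09 at P10.

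Among single genes called at 2 months and for the interaction, the largest downward difference was that of *Adcy8*, an adenylyl cyclase (interaction -4.42, standard error 0.24, adjusted p = 2.49e-10). The means were 5.94 ± 0.08 (SD, n = 4) in control nerve and 6.27 ± 0.20 in cKO nerve at P10, and 8.33 ± 0.43 in control and 4.24 ± 0.17 in cKO nerve at 2 months. It was thus higher in adult than in P10 control nerve and lower in adult than in P10 cKO nerve. *Gpm6a*, a membrane glycoprotein, gave 7.86 ± 0.19 (SD, n = 4) in control nerve and 8.51 ± 0.16 in cKO nerve at P10, and 10.66 ± 0.25 in control and 8.15 ± 0.05 in cKO nerve at 2 months. Here the cKO mean at 2 months stayed near that at P10, while the control mean was higher (interaction -3.15, standard error 0.17, adjusted p = 2.49e-10). *Etnppl*, a phospholyase (interaction -3.00, standard error 0.36, adjusted p = 1.68e-05), also had its highest mean in adult control nerve, and *Zdhhc2*, a palmitoyltransferase (interaction -3.28, standard error 0.27, adjusted p = 1.91e-07), *Lox* (interaction -2.80, standard error 0.22, adjusted p = 1.09e-07) and *B3gnt5*, a glycolipid synthase (interaction -2.79, standard error 0.28, adjusted p = 2.17e-06), had lower means in adult than in P10 cKO nerve. The largest upward differences were those of *Jchain* (interaction 5.33, standard error 0.64, adjusted p = 1.58e-05), the vesicle gene *Syt4* (interaction 3.02, standard error 0.35, adjusted p = 9.46e-06), the neutrophil attractant *Cxcl5* (interaction 2.67, standard error 0.34, adjusted p = 2.69e-05), the T cell gene *Ms4a4b* (interaction 2.65, standard error 0.24, adjusted p = 4.93e-07), *Mpeg1* (interaction 2.61, standard error 0.28, adjusted p = 3.51e-06) and *Ctss* (interaction 2.59, standard error 0.24, adjusted p = 6.42e-07). *Mpeg1*, a pore-forming protein of macrophages, gave 5.96 ± 0.19 (SD, n = 4) in control nerve and 6.33 ± 0.31 in cKO nerve at P10, and 7.09 ± 0.50 in control and 10.06 ± 0.21 in cKO nerve at 2 months, so that cKO and control nerve were close at P10 and apart at 2 months.

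**Figure D5:**
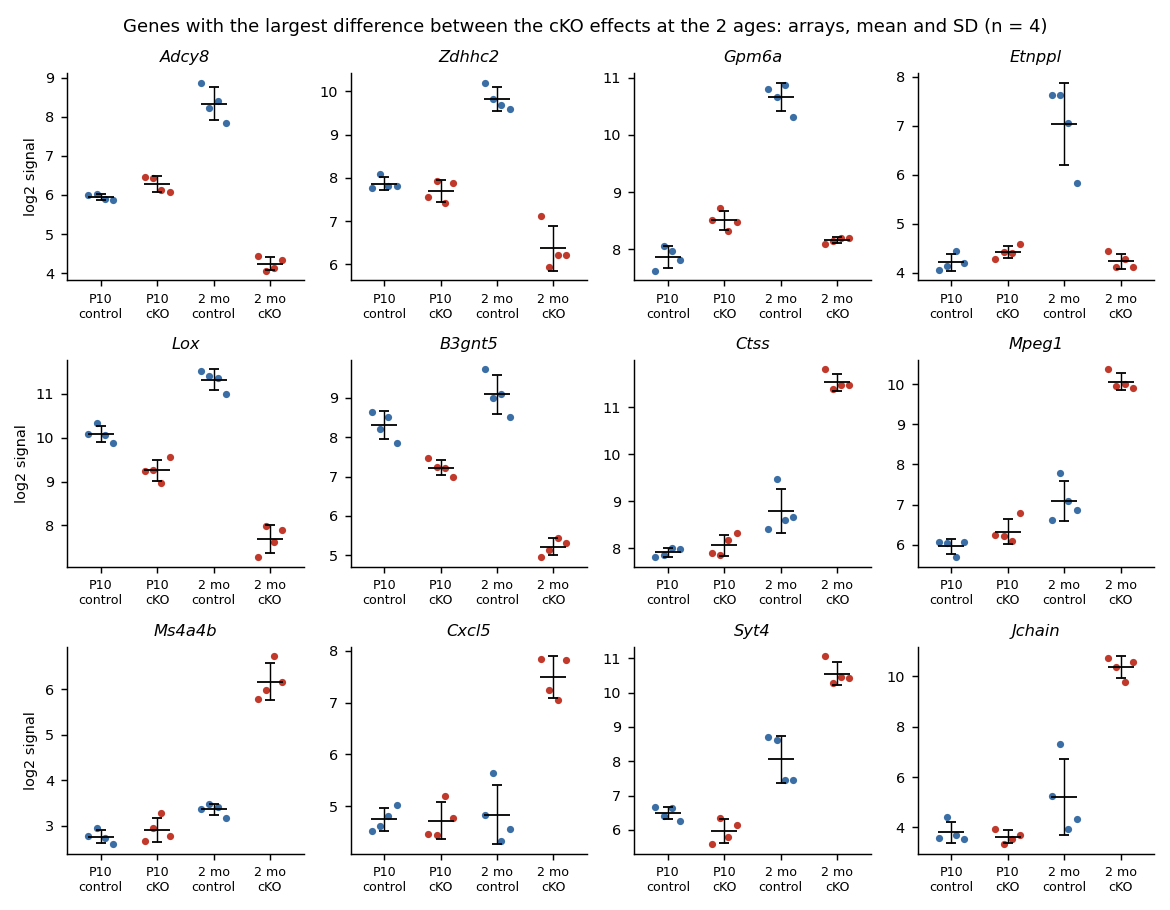
Log2 signal in each of the 16 arrays of 12 genes, 6 downward and 6 upward. They had the largest interactions of genotype and age in their direction among genes called both at 2 months and for the interaction. Control is in blue, cKO in red and the group mean and SD (n = 4) in black. The y axis differs between panels. *Adcy8* (interaction -4.42) and *Jchain* (5.33) are the extremes, and for both the genotypes lie close together at P10.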

How the data were processed

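Sciatic nerve RNA was extracted with TRIzol, labelled with biotin and hybridized to Clariom S mouse arrays. For the scans the authors used the Transcriptome Analysis Console and its robust multiarray average, and they deposited log2 values for 22206 transcript clusters, which were not normalized again here. Without the scans no background level is known, and precision is limited by the 4 arrays per group. The build of the probe annotation is not given in the sources used here. Clusters with no symbol or with several symbols were left out, and 19572 carry a single symbol. These 19572 clusters give 19505 genes. The cluster with the highest mean over the 16 arrays stood for each of the 55 genes on several clusters. In R 4.3.3 with limma 3.58.1, lmFit and eBayes (intensity trend on) were run on the 8 arrays at 2 months, and on the 16 arrays with 4 group means for the interaction. The threshold was 0.05 for p-values adjusted by Benjamini and Hochberg. The fits were first tested on simulated data. Errors are the SD over 4 arrays or the standard error of limma.

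The members, the 52 gene lists and the comparisons were chosen with earlier results of these data known, and 1 further list is not reported here. Genes were named by rule: *Becn1*, the 12 largest changes in each direction among called genes whose groups do not overlap, the 6 smallest p-values, the first 2 members of each list and up to 3 called members with the smallest p, and the 6 largest interactions in each direction among genes called in both tests. The member with the highest or lowest change of a list, the members not called in a list, *Dag1*, *Cdkn1b* and *Pmp2* are named outside the rule, with their values known. Alternatives were a single fit of 16 arrays, centring, quantile normalization, a filter on dim genes, every cluster, no trend, array weights, a replicate block, the 5000 most variable clusters, SAM with 70 permutations, a 2-fold minimum and each array left out. A fit with the Y-linked genes as a covariate and one without both arrays numbered 2 were added after the data were seen.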

Additional observations from a re-analysis of the deposited data

Results flagged for a closer look

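In 18 of the 436 sets of 4 arrays tested (218 named genes in 2 groups) 1 array lay far from the other 3 of its group, by the ratio of its gap to the range. Chance flags about 1 in 20 such sets. In control nerve, replicate 2 was high for *Cx3cr1* (7.33) and *Srxn1* (7.31). Replicate 4 was low for *Msln* (7.45), *Abcb1a* (9.97), *Atp6v1a* (8.58) and *Mcm3* (6.35), replicate 3 for *Hey2* (6.20) and replicate 1 for *H2-K1* (9.60). In cKO nerve, replicate 2 was high for *Egr2* (8.60), *Sptb* (5.70), *Mcam* (10.2) and *Notch2* (8.89) and low for *Aif1* (7.43). Replicate 1 was high for *Sncg* (8.30) and low for *Pmel* (10.2) and *Kit* (7.81), and replicate 3 was low for *Plcb1* (6.74) and *Csf3r* (8.06). All of these genes are called at 2 months, and their calls held with each array left out.

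The effect of the deletion differed between the 2 ages by an interaction term. The 12 genes below had the largest differences in each direction among genes called both at 2 months and for the interaction. On the log2 scale the effect at 2 months minus that at P10 was -4.42 for *Adcy8*, -3.28 for *Zdhhc2*, -3.15 for *Gpm6a*, -3.00 for *Etnppl*, -2.80 for *Lox* and -2.79 for *B3gnt5*. It was 5.33 for *Jchain*, 3.02 for *Syt4*, 2.67 for *Cxcl5*, 2.65 for *Ms4a4b*, 2.61 for *Mpeg1* and 2.59 for *Ctss*.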

How the results depend on the processing

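The counts of 3600 higher and 3022 lower genes stayed within 1.5 times under every setting that tested all genes with no fold minimum. With 1 array left out they ran from 3151 to 3760 and from 2545 to 2945, and SAM on all genes gave 4036 and 3599. Testing only the 5000 most variable clusters gave 1865 and 1815, SAM on those gave 1951 and 1977, since fewer genes were tested, and a minimum of 2-fold gave 718 and 641. The interaction counts of 1499 and 895 ran from 1100 to 1659 and from 632 to 1009 with 1 array left out. They were 2030 and 1250 with array weights, and quantile normalization moved their split to 1228 and 1085. The replicate numbers were not established as pairing the arrays. Deviations of same-numbered arrays correlated at 0.03 to 0.10 across genes, and those of differently numbered arrays at -0.10 to 0.07. Replicates 1, 2 and 4 of cKO correlated best with the control array of the same number, and cKO replicate 3 with control replicate 1. With the number as a block, 3505 genes were higher and 2954 lower, and *Becn1* at -0.26 (adjusted p = 0.0556) and *Syt1* were the 2 named genes no longer called, while *Cpa3* (adjusted p = 0.0122) and *Cd8a* (adjusted p = 0.0266) became called. *Becn1* ran from -0.29 to -0.23 with 1 array left out and was -0.28 (adjusted p = 0.0846) without both arrays numbered 2. Of 199 named genes called, 10 lost the call with some array left out, 11 lost it under another setting, and none turned. The genes that turned were uncalled: with 1 array left out *Cntnap1* ran from -0.014 to 0.22, *Fasn* from -0.33 to 0.17, *Axin2* from -0.17 to 0.079 and *Lama2* from -0.012 to 0.076. *Fasn* was 0.013 with array weights and *Cntnap1* -0.10 without both arrays numbered 2. The cause was not tested.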
